A study of Mus musculus with 5 samples.

Results

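The Peg10 domain is a cluster of imprinted genes near the start of mouse chromosome 6. Of 53700 gene features counted in the series, 43 touch the stretch from 3.6 to 6.0 Mb, and 9 of those lie over exons of 8 genes: Peg10, Sgce, Calcr, Asb4, Ppp1r9a, Casd1, Pon2 and Pon3. The ninth feature is a short one inside Pon2, labelled Gm44424. The cluster was picked because Peg10 stood far higher in one genotype, so the differences between genotypes given below for its 8 genes are descriptions. Calls among the 8 genes are counted below beside the share over all features, but a call on the contrast that chose them supports nothing.

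The data are RNA-seq counts from a stranded mRNA kit. The libraries came from striatal homogenates of adult mice: 2 libraries from animals carrying the R419W allele of Adcy5 (KI, replicates 1 and 3) and 3 from wild-type littermates (WT, replicates 1, 2 and 3). Most striatal cAMP is made by the adenylyl cyclase that Adcy5 encodes, and the series concerns hyperkinetic movement disorders and striatal cAMP. The labels give no zygosity, sex or exact age for the animals, and no other allele or treatment. They do not say whether libraries of a genotype came from different animals. The p-values therefore reflect only how far these libraries scatter, and part of that scatter may be technical. Total counts ran from 6595105 to 7910584 per library, and 0 features lay over the exons of Adcy5, so the genotype could not be checked in the counts.

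Imprinted genes are read from only one parental copy, or mainly from one, because a methylation mark set in the germ line silences the other. In this cluster the mark sits where Peg10 and Sgce start, and those 2 genes are read from the paternal copy. Calcr, Asb4, Ppp1r9a, Pon2 and Pon3 have been reported as favouring the maternal copy, some of them only in certain tissues. Counts per gene do not separate parental copies, so what follows is the summed level of both. Peg10 came from a retrotransposon and kept an overlapping pair of reading frames, which ribosomes join by slipping back a base. Sgce encodes epsilon-sarcoglycan, a membrane protein, and mutations of its paternal copy cause myoclonus-dystonia in people.

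The Peg10 slip site is shown because it is the hallmark of the gene of the cluster with the largest difference in CPM, and because the counts cover both frames of its mRNA without telling them apart. In the GENCODE transcript Peg10-202 (6667 bases, GRCm38) the slip motif GGGAAAC occurs 1 time, at transcript base 1477. The stretch below spans chr6:4755297-4755351 on the plus strand. Capitals mark the slip motif and, 15 coding bases further on, the stop codon that ends the first frame when no slip occurs.
Peg10 slip site: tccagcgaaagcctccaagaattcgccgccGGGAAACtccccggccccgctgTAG

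Peg10 was high in both KI libraries and low in all 3 WT libraries. Its feature (ENSMUSG00000092035, chr6:4747306-4760517, plus strand, 2 exon intervals of 6667 bases together) held 1509, 1024 and 1205 counts for WT replicates 1 to 3, against 6962 for KI replicate 1 and 7871 for KI replicate 3. As counts per 1000000 (CPM, with TMM-scaled library sizes), these were 198.2, 136.9 and 184.4 in WT and 943.4 and 974.7 in KI. The lowest KI library stood 4.76-fold above the highest WT library, so the groups lay far apart. Means were 173.2 ± 32.2 CPM in WT (SD, n = 3) and 959.0 ± 22.1 in KI (SD, n = 2), a ratio of 5.54 and a fitted log2 fold change of 2.47 (SE 0.14). In rank among all features, Peg10 went from place 1309 in WT to place 112 in KI. Only 3 of the 7936 tested features with a mean of at least 10 CPM had a log2 fold change that large, Peg10 included. Among all 13665 tested features, weakly expressed ones included, it had place 54 by log2 fold change. The cluster was picked for this difference, so these places describe the choice.

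Sgce starts 99 bases from Peg10 on the opposite strand, and its libraries overlapped between genotypes. Its feature (ENSMUSG00000004631, chr6:4674350-4747207, minus strand, 14 exon intervals) gave 152.1, 135.4 and 115.9 CPM in WT, compared with 129.4 and 162.0 in KI. The 2 groups overlapped, with the highest and one of the lower values both from KI. The fitted log2 fold change was 0.12 (SE 0.15), and without KI replicate 3 it was -0.05.

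The 2 head-to-head paternal genes therefore stood in a different proportion in each genotype. Per kilobase of feature, Peg10 exceeded Sgce by 2.07, 1.61 and 2.53 times in WT and by 11.6 and 9.58 times in KI. Peg10 made up 56.6%, 50.3% and 61.4% of the counts of the pair in WT, and 87.9% and 85.8% in KI. Both proportions are read within a library, so they do not depend on how libraries are scaled. Strand was not used in counting, and the features do not overlap.

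**Figure D1:**
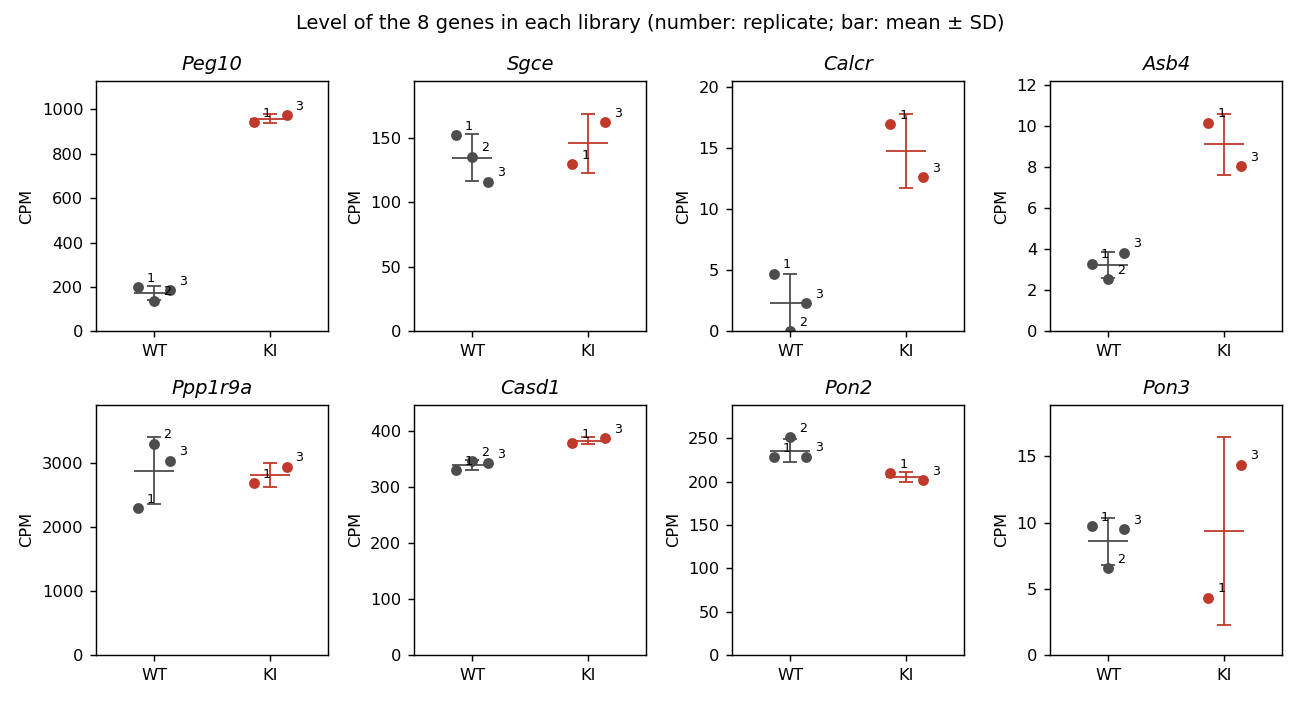
Level of each of the 8 genes in CPM by genotype; dots are libraries numbered by replicate, horizontal marks are means and whiskers are SD. Peg10 reads 136.9 to 198.2 CPM in WT, compared with 943.4 to 974.7 in KI, Calcr and Asb4 are also higher in both KI libraries, and Sgce, Ppp1r9a and Pon3 overlap between genotypes.

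Among the genes reported as maternal, Calcr and Asb4 also stood higher in both KI libraries, at levels far below that of Peg10. Calcr encodes the calcitonin receptor, which with accessory proteins also binds amylin and is known from the hypothalamus and the ventral striatum. Its feature (ENSMUSG00000023964, chr6:3685680-3764714, minus strand, 17 exon intervals) held 36, 0 and 15 counts in WT, compared with 125 and 102 in KI. These correspond to 4.73, 0 and 2.30 CPM in WT, compared with 16.9 and 12.6 CPM in KI. The count of 0 in WT replicate 2 allows up to 0.401 CPM (3 counts of that library, for counting error only). All WT values lay under the KI values, but the WT libraries scattered widely, with a coefficient of variation of 101.0%. The log2 fold change was 2.65 with an SE of 0.79, and it ran from 2.06 without WT replicate 2 to 3.73 without WT replicate 1. With limma voom it was 4.05 (SE 1.17).

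Asb4 encodes an ankyrin repeat protein with a SOCS box, a part of ubiquitin ligase complexes, and is known from hypothalamic neurons. Its feature (ENSMUSG00000042607, chr6:5383386-5433022, plus strand, 8 exon intervals) held 25, 19 and 25 counts in WT, compared with 75 and 65 in KI, or 3.28, 2.54 and 3.83 against 10.2 and 8.05 CPM. The KI libraries again lay above all WT libraries, by a factor of 2.10 at the nearest. The log2 fold change was 1.50 (SE 0.48). A value that large or larger was found for 1.59% of all tested features. Calcr and Asb4 lie on either side of Peg10, 982.6 and 622.9 kb from it.

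Promoters of Calcr and Asb4 are printed because these genes differed in the same direction as Peg10 and because the study concerns cAMP. The RefSeq promoter table (GRCm38.p6) holds 10 promoters, of 250 bases before to 50 after a start, for 6 of the 8 genes, all but Peg10 and Sgce. They were searched on both strands for TGACG, the half-site of the cAMP response element, and for the full element TGACGTCA, which contains it. Capitals mark TGACG. The Calcr stretch is chr6:3763574-3763873 on the minus strand, and the Asb4 stretch chr6:5383136-5383435 on the plus strand.
Calcr: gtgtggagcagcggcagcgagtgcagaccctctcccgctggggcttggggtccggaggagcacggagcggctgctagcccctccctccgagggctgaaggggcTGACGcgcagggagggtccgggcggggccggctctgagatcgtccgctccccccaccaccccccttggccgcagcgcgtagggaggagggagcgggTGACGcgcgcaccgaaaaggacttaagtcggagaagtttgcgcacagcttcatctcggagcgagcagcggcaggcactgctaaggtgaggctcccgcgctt
Asb4: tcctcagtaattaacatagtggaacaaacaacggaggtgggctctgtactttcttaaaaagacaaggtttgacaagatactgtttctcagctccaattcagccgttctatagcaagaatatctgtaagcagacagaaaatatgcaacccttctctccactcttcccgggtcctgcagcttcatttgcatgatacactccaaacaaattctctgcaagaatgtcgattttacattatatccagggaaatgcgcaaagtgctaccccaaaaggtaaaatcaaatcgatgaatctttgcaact

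The printed Calcr promoter held 2 copies of TGACG, and a second Calcr promoter held 1. One Casd1 and one Ppp1r9a promoter also held 1 copy, so 4 of the 10 promoters held the half-site. Neither Asb4 promoter held it, and none of the 10 promoters held TGACGTCA. Over all 32851 promoters of this length, 20.8% held TGACG, 5.01% held it at least 2 times and 1.79% held TGACGTCA. The Calcr stretch is rich in CpG (29 copies, GC content 70%), and the Asb4 stretch has 6 copies at 40.3% GC. Across all promoters the median was 7 copies. These matches describe letters only, and the counts do not say which start was in use.

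Ppp1r9a, the most abundant gene of the cluster, did not separate the genotypes. It encodes neurabin, which anchors protein phosphatase to actin in dendritic spines. Its feature (ENSMUSG00000032827, chr6:4902917-5165661, plus strand) gave 2299, 3310 and 3041 CPM in WT, compared with 2687 and 2947 in KI, so both KI libraries fell inside the WT range. The log2 fold change was -0.03 (SE 0.12), and its sign changed with the library left out (-0.17 to 0.08).

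Pon2 and Pon3 encode paraoxonases, lactone-cleaving enzymes linked to lipid oxidation. Pon2 (ENSMUSG00000032667, chr6:5264147-5298455, minus strand) gave 227.9, 251.0 and 228.5 CPM in WT, compared with 209.6 and 201.6 in KI. Both KI libraries lay below all WT libraries, but the ratio of means was only 1.15 (log2 fold change -0.20, SE 0.12). The Pon2 feature also covers Gm44424, whose own feature held at most 10 counts in any library. Pon3 (ENSMUSG00000029759, chr6:5220852-5256286, minus strand) was low, at 9.72, 6.55 and 9.49 CPM in WT. Its KI libraries stood at 4.34 and 14.4 CPM, on both sides of the WT range, and its log2 fold change went from -0.98 without KI replicate 3 to 0.74 without KI replicate 1.

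Casd1 encodes an enzyme that adds acetyl groups to sialic acids, and it lies beyond the far end of Sgce, away from Peg10. Its feature (ENSMUSG00000015189, chr6:4600839-4643355, plus strand, 19 exon intervals) gave 330.5, 346.8 and 342.9 CPM in WT, compared with 379.0 and 387.4 in KI. The groups did not overlap, although the means differed only by a ratio of 1.13 (log2 fold change 0.17, SE 0.11). Casd1 varied little within a genotype, with coefficients of variation of 2.51% in WT and 1.54% in KI.

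All 8 genes passed the filter on low counts. Both KI libraries lay above all WT libraries for 4 of them (Peg10, Calcr, Asb4 and Casd1) and below for 1 (Pon2), where the shares over all 13665 tested features were 11.3% and 11.1%, or 22.4% together. By edgeR's quasi-likelihood test at an adjusted p under 0.05 only Peg10 of the 8 was called, against 0.102% of all features: 14 in all, of which 6 were higher in KI (0.0439%) and 8 lower (0.0585%), and 9 and 7 with unscaled totals. The 14 became 161 without WT replicate 1, 3 without WT replicate 2, 2 without WT replicate 3, 30 without KI replicate 1 and 6 without KI replicate 3. Nothing is read from these counts, since the cluster was chosen on this contrast. Of the 8 fitted values 6 were positive and 2 negative, with a median log2 fold change of 0.15, against 0.00 over all tested features.

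**Figure D2:**
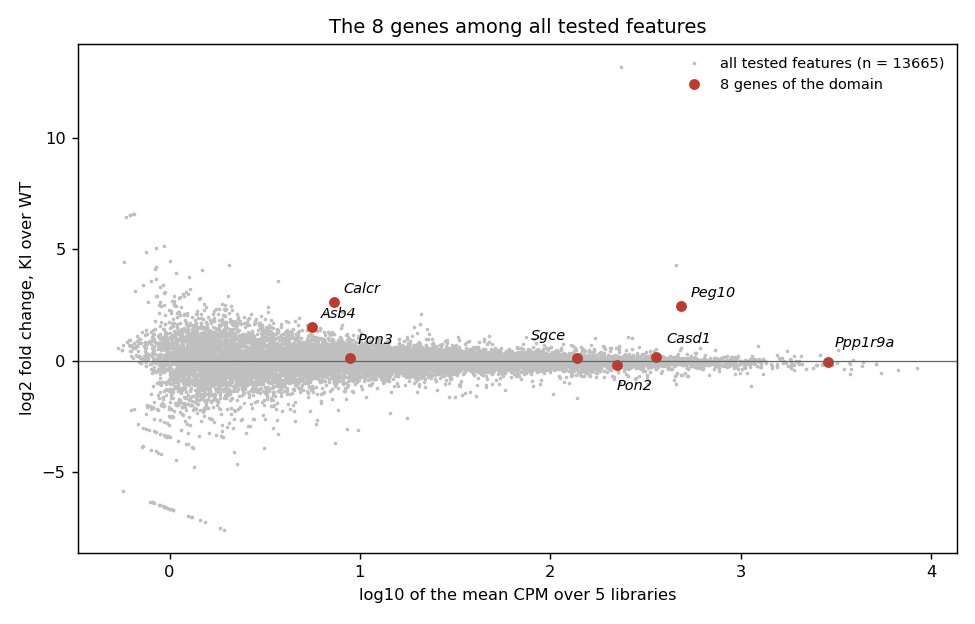
Fitted log2 fold change (KI over WT) against the log10 of the mean CPM, with 13665 tested features in grey and the 8 genes in red. Peg10 stands at 2.47 among well expressed features that cluster near 0, whereas Calcr and Asb4 lie among weakly expressed features, where values scatter more widely.

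Levels between genes were compared as CPM per kilobase of feature. In WT the order was Ppp1r9a (198.4 ± 36.0, SD, n = 3), Casd1 (84.2 ± 2.11), Pon2 (32.1 ± 1.79), Peg10 (26.0 ± 4.83), Sgce (12.7 ± 1.71), Pon3 (2.54 ± 0.52), Asb4 (0.82 ± 0.16) and Calcr (0.60 ± 0.60). Pon2 and Peg10 differed by less than their SDs added together, and Asb4 and Calcr overlapped. The other neighbours in this order did not overlap in any library. In KI, Peg10 was second (143.8 ± 3.32 CPM per kilobase, SD, n = 2), after Ppp1r9a (193.8 ± 12.7) and before Casd1 (94.9 ± 1.46). Pon2 (28.0 ± 0.77) and Sgce (13.7 ± 2.17) followed. Calcr (3.78 ± 0.78), Pon3 (2.76 ± 2.10) and Asb4 (2.32 ± 0.38) came last, and Pon3 overlapped both. Peg10 supplied 6.15%, 3.27% and 4.70% of the counts of the 8 genes in WT and 21.5% and 20.7% in KI.

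No neighbour in the same stretch was called. Of 35 other features there, 21 had 0 counts in all 5 libraries and 8 were tested. By edgeR's quasi-likelihood test 0 of the 8 were called and 0 had an unadjusted p under 0.05. DESeq2 and limma voom also called 0. In none of them did both KI libraries lie above, or both below, the WT range. Their log2 fold changes ran from -0.37 for Gng11, a G protein gamma subunit, to 0.23 for the noncoding Gm44250. Col1a2, a collagen gene between Calcr and Casd1, stood at -0.18 (SE 0.24), and Bet1, a Golgi transport gene, at 0.14 (SE 0.18). On the far side Pdk4, a mitochondrial kinase, stood at 0.12 (SE 0.18) and Dync1i1, a dynein subunit, at 0.04 (SE 0.17). Vps50, at the edge nearest the start of the chromosome, stood at -0.04 (SE 0.12), and the noncoding Gm26814, inside Ppp1r9a, at -0.14 (SE 0.99). Gm26736, also inside Ppp1r9a, had too few counts to be tested, with 4.46 CPM in KI replicate 3 and at most 1.31 in the others.

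**Figure D3:**
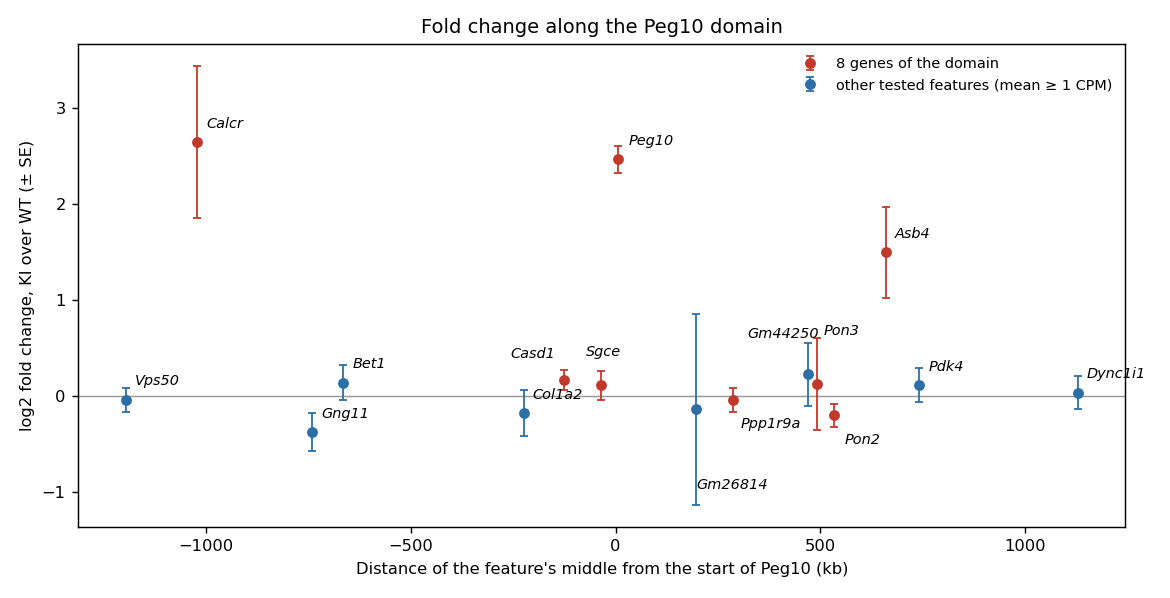
Fitted log2 fold change (KI over WT) with SE against the distance of each feature's middle from the start of Peg10, in kb, for the 8 genes (red) and other tested features with a mean of at least 1 CPM (blue). Peg10, Calcr and Asb4 stand at 1.50 or higher, and the other features that are not among the 8 genes lie between -0.37 and 0.23.

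Over the first 10 Mb of chromosome 6, leaving out the 8 genes, 33 features were tested and 0 were called by edgeR's quasi-likelihood test, and 2 had an unadjusted p under 0.05, with 0 called by DESeq2 or limma voom. Their median log2 fold change was -0.04. From 10 to 30 Mb, 0 of 75 were called (2 by DESeq2, both lower, and 0 by limma voom) and 9 had an unadjusted p under 0.05, with a median of -0.10. Unadjusted p values that small were found for 6.4% of all tested features. Over all features, DESeq2 called 73 lower among 6710 with an adjusted p.

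Outside this stretch of chromosome 6 the positions of features and of the GRCm38 genes often differ, though not for every gene. The reads were taken to follow GRCm38, so other genes were named by the GRCm38 exons at a feature's position. Often only part of a gene was read. Of 30 other imprinted genes listed as paternally expressed, 8 were tested. By edgeR's quasi-likelihood test 2 rose and 0 fell, against 0.0439% and 0.0585% of all tested features, and the median log2 fold change was 0.35. An unadjusted p under 0.05 was found for 5 of the 8, against 6.4% of all. These 5 include Rtl1, read over 440 of its 6358 exon bases. Its feature also covers Meg3 and Rian, both listed as maternally expressed, so its value may not be that of a paternal gene. Peg3, a zinc finger gene, stood at 993.8 ± 10.6 CPM in WT, compared with 1585 ± 27.8 in KI (log2 fold change 0.67, adjusted p = 0.006394). It lost the call without WT replicate 2, WT replicate 3 or KI replicate 3 (up to an adjusted p = 0.1849 in edgeR). Usp29, its neighbour, stood at 178.1 ± 8.23 and 372.7 ± 29.6 CPM (log2 fold change 1.07, edgeR adjusted p = 0.002089), and lost the call without WT replicate 3 (adjusted p = 0.07454). The other 6 had log2 fold changes of 0.07 to 0.88 with none called: Zdbf2 (0.88, SE 0.21) and Rasgrf1 (0.34, SE 0.12) lay higher in both KI libraries. Zdbf2 was read over 882 of 12659 exon bases and Rasgrf1 over 640 of 11063. For Peg3 it was 6743 of 13324, and for Usp29 4822 of 18078. The list and its members were chosen with earlier results of these data known, so the shared sign is not independent evidence.

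Of 30 genes listed as maternally expressed elsewhere, 9 were tested. Of these, 0 were called by edgeR's quasi-likelihood test, and 2 had an unadjusted p under 0.05, against 6.4% of all tested features. There were 5 positive and 4 negative values, and the median log2 fold change was 0.13. Zim1, a zinc finger gene beside Peg3, fitted at 1.65 on the log2 scale (SE 0.34, edgeR adjusted p = 0.08769) at 12.4, 7.22 and 13.9 CPM in WT, compared with 23.6 and 46.3 in KI. DESeq2 called 2 of the list, Zim1 and Meg3, and limma voom called 1, Meg3. Over all features, DESeq2 called 50 higher among 6710 with an adjusted p, and limma voom 25 among 13665. Meg3, a long noncoding RNA, had 0.50 (SE 0.11, edgeR adjusted p = 0.09273). The Meg3 reads lay over 3429 of its 18089 exon bases.

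**Figure D4:**
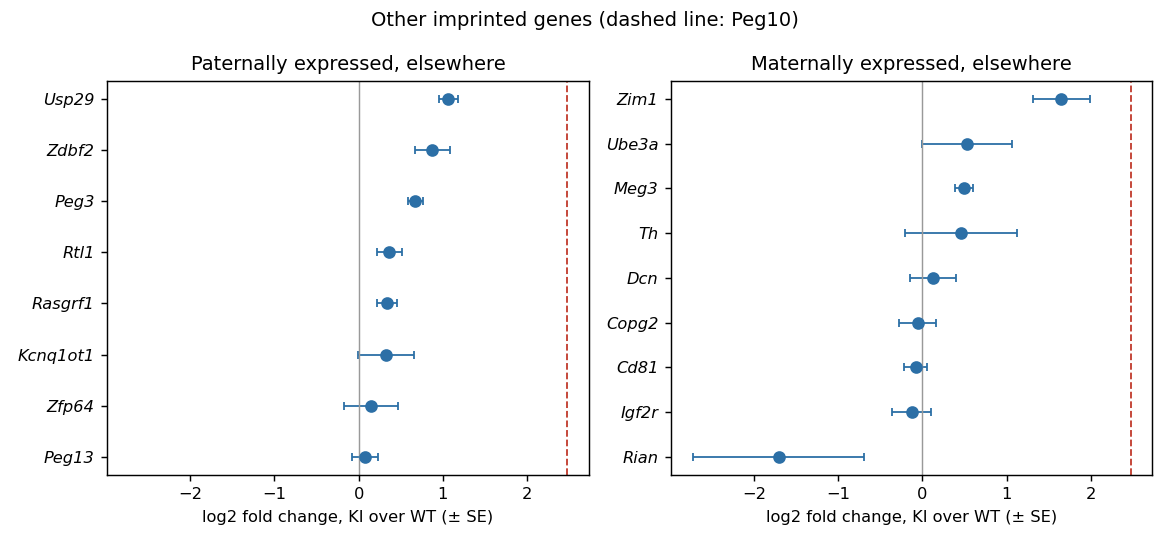
Fitted log2 fold change (KI over WT) with SE for tested imprinted genes elsewhere in the genome, split by the parental copy they are known to be read from. The feature read for Rtl1 also covers Meg3 and Rian, listed as maternally expressed. The dashed line marks Peg10 at 2.47; every gene shown lies below it, with Zim1 the nearest at 1.65.

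No tested regulator of imprinting was called. Of 17 listed, 9 were tested (DNA methyltransferases and their partners, histone methyltransferases, Ctcf and others). Of these, 6 had a positive and 3 a negative log2 fold change, with a median of 0.21. In edgeR's quasi-likelihood test 0 had an unadjusted p under 0.05. DESeq2 and limma voom called 0 as well. Dnmt1, the maintenance DNA methyltransferase, stood at 48.5, 48.1 and 53.4 CPM in WT, compared with 72.5 and 50.9 in KI (0.30, SE 0.19). Ehmt2, a histone methyltransferase, had a log2 fold change of 0.22 (SE 0.15). Dnmt1 was read over 586 of 7377 exon bases, Ehmt2 over 82 of 5489 and Ctcf over 84 of 4860.

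No other tested gene derived from a retrotransposon was called. Of 22 listed, 8 were tested, Peg10 included. Without Peg10, 7 were tested and 0 called by edgeR's quasi-likelihood test. An unadjusted p under 0.05 was found for 3 of the 7, against 6.4% of all tested features. There were 5 positive and 2 negative log2 fold changes, with a median of 0.25. DESeq2 and limma voom called 0 too. Zcchc12, which codes for a zinc finger protein of this family, stood at 89.2, 77.3 and 73.9 CPM in WT, compared with 122.0 and 114.5 in KI (0.56, SE 0.14). It was read over only 97 of 2280 exon bases. The reads over Rtl1 (0.36, SE 0.14) came from a feature that also covers Meg3 and Rian. Arc, the activity-regulated gene, stood at -0.38 (SE 0.16).

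Genes of ubiquilins, of ligases tied to PEG10 protein turnover and of the dystrophin-glycoprotein complex to which sarcoglycans belong were listed as partners. Of 20 listed, 8 were tested. By edgeR's quasi-likelihood test 0 of these were called, and 1 had an unadjusted p under 0.05, against 6.4% of all tested features. There were 3 positive and 5 negative values, with a median log2 fold change of -0.24. Neither DESeq2 nor limma voom called any (0 each). Dtnb, the beta-dystrobrevin gene, stood at -0.52 (SE 0.22), and Ubqln4, a ubiquilin gene, at -0.40 (SE 0.20). Dtnb was read over 516 of 9603 exon bases and Ubqln4 over 159 of 4147. Ube3a, a ubiquitin ligase gene, was read over 2989 of 20626 exon bases and stood at 0.53 (SE 0.54).

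Some features elsewhere had nearly the same profile as Peg10 over the 5 libraries. Among 5452 named features with a mean of at least 10 CPM, the 5 with the highest Pearson r of log2 CPM with Peg10 were Rgs10 (0.997), Smc5 (0.996), Peg3 (0.992), Usp29 (0.992) and Nsd1 (0.992). With 5 libraries in 2 genotypes, this measure mostly reads a step between genotypes: 51 of the features exceeded 0.95. Smc5 was read over only 47 of 6788 exon bases, Rgs10 over 154 of 1711 and Nsd1 over 179 of 17483. Within the cluster, r with Peg10 was 0.98 for Asb4, 0.92 for Casd1, 0.84 for Calcr, 0.35 for Sgce and -0.93 for Pon2.

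Markers of other cell types and regions were read in the same libraries, because Calcr and Asb4 are also known from the hypothalamus. In bulk tissue, fewer cells of a type and less RNA per cell cannot be told apart. Of 30 markers of hypothalamus and ventral forebrain, 10 had a feature, 0 of these were at 0 in all libraries, and 2 (Lhx8 and Zcchc12) had both KI libraries above all WT libraries, which held for 11.3% of all tested features. None of the 10 (0) was called by edgeR, DESeq2 or limma voom, and 3 had an unadjusted edgeR p under 0.05 (6.4% of all tested features). No feature lay over Gal, Avp, Oxt, Hcrt, Pmch, Pomc or Trh. The summed level of the 10 markers was 518.6 to 646.9 CPM in WT, compared with 639.6 to 786.7 in KI, with a ratio of means of 1.26. The groups overlapped only through KI replicate 3 (639.6) and WT replicate 1 (646.9). Of these 10 markers, 8 had a positive and 2 a negative log2 fold change, with a median of 0.28. Hap1, the most abundant of them, stood at 186.6, 120.7 and 132.7 CPM in WT, compared with 236.2 and 166.6 in KI. Their part in the differences of Peg10, Calcr and Asb4 was not tested.

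The striatal label was checked on 15 markers of spiny projection neurons, of which 8 had a feature. Their sum, mostly Penk, was 9157 to 12039 CPM in WT, compared with 7846 to 8806 in KI. Penk alone gave 6722, 8271 and 7355 CPM in WT, compared with 5296 and 5903 in KI. Only Penk and Rgs9 had both KI libraries below all WT libraries, and the other tested markers overlapped. DESeq2 and limma voom each called 2 of the 8 markers lower in KI, Penk and Rgs9, and edgeR called 0. Over all features, DESeq2 called 73 lower among 6710 with an adjusted p, and limma voom 27 among 13665. An unadjusted edgeR p under 0.05 was found for 3 of the markers, against 6.4% of all tested features. Of the 7 tested, 5 had a negative log2 fold change and 2 a positive one, Tac1 (0.14, SE 0.12) and Rarb (0.21, SE 0.73). Drd1, Drd2, Adora2a and Pdyn had no feature. Sums of cortical markers (5 of 10 with a feature), mostly Foxp2, were 414.7 to 736.0 CPM in WT, compared with 354.9 to 408.8 in KI. Foxp2 alone gave 310.2, 397.7 and 385.6 CPM in WT, compared with 287.9 and 317.3 in KI, so its groups overlapped. Slc17a7, the next most abundant, gave 73.55, 286.7 and 210.3 CPM in WT, compared with 96.07 and 22.04 in KI, and overlapped too. No tested cortical marker separated the genotypes, so the lower sum in KI rests on adding them. Over 10 marker lists, sums lay lower in both KI libraries for 5 (spiny neuron, cortical neuron, oligodendrocyte, astrocyte and microglia) and overlapped for the other 5. The lowest WT and highest KI sums were 2622 and 2600 CPM for oligodendrocytes, 133.4 and 131.3 for astrocytes and 21.4 and 21.2 for microglia. Both KI libraries lay below all WT libraries for 2 of 7 tested spiny neuron and 0 of 5 cortical markers. The same held for 2 of 5 oligodendrocyte, 0 of 3 astrocyte and 1 of 2 microglia markers. Over all tested features the share was 11.1%.

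KI replicate 3 stood apart in choroid plexus markers, of which 5 of 10 had a feature. Their sum was 2617 CPM there, against 292.3 in KI replicate 1 and 345.2 to 412.6 in WT, and Ttr gave 2093 CPM of it. Peg10 was at 943.4 CPM in KI replicate 1 and 974.7 in KI replicate 3, and its log2 fold change without KI replicate 3 was 2.45. Thalamic markers (4 of 7 with a feature) summed to 185.9 CPM in WT replicate 1 and 103.0 in KI replicate 1, and to 16.6 to 38.4 in the other libraries. Calcr was highest in replicate 1 of each genotype too, and its log2 fold change without WT replicate 1 was 3.73 and without KI replicate 1 was 2.42. The part of choroid plexus or thalamic tissue in the levels of Peg10 and Calcr was not tested.

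**Figure D5:**
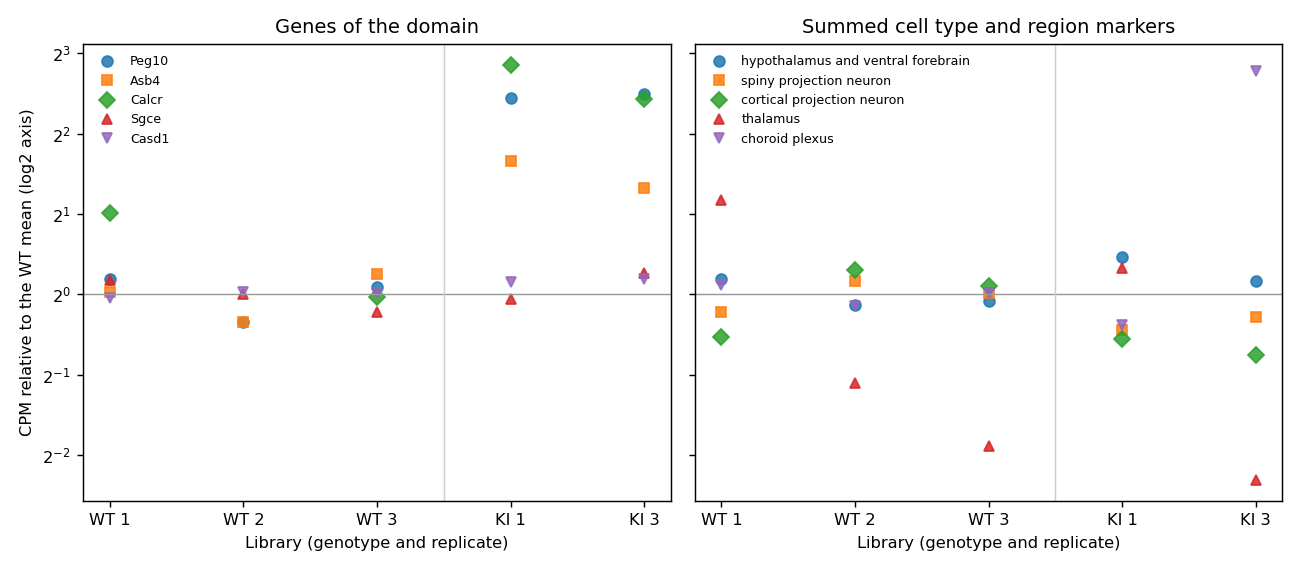
CPM in each library relative to the WT mean, on a log2 axis, for 5 genes of the cluster (left) and for summed markers of 5 cell types or regions (right); the count of 0 for Calcr in WT replicate 2 is not drawn. Peg10, Calcr and Asb4 rise above the WT mean in both KI libraries, while the sum of hypothalamic and ventral forebrain markers overlaps between genotypes and the choroid plexus sum is high only in KI replicate 3.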

How the data were processed

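Per the file headers, the authors deposited unnormalised counts of fragments per gene, from featureCounts 2.0.1 on the Ensembl 103 annotation of GRCm39. A fragment was counted for each feature it overlapped, strand was ignored and multi-mapped reads were left out, per the file headers. The aligner and its build were not given in the sources used here. The submitters' processing notes name GRCm39, with no role given. GRCm38 exons lie under 36.7% of the features, by position alone, and these features held 98.9% of the counts. The reads were therefore taken to lie at GRCm38 positions, which no source states, and features were named by the GENCODE M21 (GRCm38) exons at their position with bedtools 2.31.1. In the first 10 Mb of chromosome 6, 106 of 106 features shared by both annotations start at the same base, so the 8 genes carry their own labels and all their exons.

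KI (n = 2) was compared with WT (n = 3) over all features with edgeR 4.0.16 in R 4.3.3: filterByExpr, TMM, the quasi-likelihood test, Benjamini-Hochberg adjustment over 13665 features with calls at 0.05. The common biological coefficient of variation was 29.8%. The test was checked on simulated counts. At totals of 6595105 to 7910584 counts, a count of 0 allows up to 0.371 to 0.459 CPM (3 counts). Alternatives were no filter, unscaled totals, DESeq2 1.42.0, limma 3.58.1 voom, a replicate block, each library left out, and other ways to read a gene. The cluster's genes and all lists were chosen with earlier results of these data known. The genes named were all 8, neighbours with a mean of at least 1 CPM, and from each list those called or, where none was, the 2 of lowest p, plus the 5 features most correlated with Peg10 and the most abundant markers. Genes outside this rule (Zdbf2, Rasgrf1, Ube3a, Arc, Lhx8, Rgs9, Tac1, Rarb, Slc17a7 and genes without a feature) were chosen after their values were seen.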

Additional observations from a re-analysis of the deposited data

How the results depend on the processing

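The log2 fold change of Peg10 stayed between 2.33 and 2.58 under its 12 alternatives, each within the spread between replicates of the value reported (2.47), and between 2.33 and 2.58 when 1 library was left out. Of 96 values for the 8 genes under alternatives, 86 kept their sign and 94 moved by less than the spread between replicates. The 2 that moved more were Casd1 with unscaled totals (0.22) and Pon3 without KI replicate 3 (-0.98). Calcr, not called in the fit reported, was called in 3 of its 12 alternatives. These were no filter, the replicate block and the fit without WT replicate 1. In the replicate block, WT replicate 2 (0 Calcr counts) has no KI library of its number. That library therefore adds nothing to the fold changes of that fit.

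The number of changed features was 14 in the fit reported. It was 183 without a filter (72 higher and 111 lower in KI), 123 with the DESeq2 Wald test (50 and 73), 52 with limma voom (25 and 27) and 154 with the replicate block (60 and 94). With unscaled totals it was 16 (9 and 7). Leaving out 1 library gave 2 to 161, with 161 without WT replicate 1, 3 without WT replicate 2, 2 without WT replicate 3, 30 without KI replicate 1 and 6 without KI replicate 3. The cause was not tested. With 1 KI library left, its spread is taken to be that of WT.

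Replicate numbers are shared by WT and KI for 1 and 3 only, and nothing in the labels says that a number pairs libraries. Deviations from the group means correlated at 0.11 for the number 1 and 0.07 for the number 3 across features. Libraries of unlike number gave -0.11 to 0.05. With 2 KI libraries, their deviations mirror each other, so these values cannot show whether a number pairs libraries. In the replicate block Peg10 had a log2 fold change of 2.33, Calcr 2.12, Asb4 1.35 and Sgce 0.12. Calcr, Asb4 and Pon3 held at most 125 counts in any library, so counting error is larger for them than for the other 5 genes.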
